A study of Mus musculus with 12 samples.

Results

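A set of 10 genes that restrain the mitogen-activated protein kinase (MAPK) cascades was followed in IEC4.1 cells with and without interferon-γ (IFN-γ) and with and without knockdown of the long non-coding RNA Nostrill. They are the dual-specificity phosphatase genes Dusp1, Dusp4, Dusp5, Dusp6, Dusp7, Dusp10, Dusp14 and Dusp16 and the Sprouty genes Spry2 and Spry4, chosen by gene symbol. They make up 10 of the 15002 genes listed, and all 10 were among the 11900 genes that passed the filter on low counts. Averaged over both siRNAs, IFN-γ was followed by more Dusp6 and Dusp5 transcript and by less Dusp1, Dusp4 and Spry4 transcript, with fitted folds of 1.4, 1.28, 0.741, 0.71 and 0.684 in that order. No difference between siR_Nostrill and siR_Ctrl passed the main test, edgeR on the counts of all 12 libraries, for any of the 10 genes.

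IEC4.1 is described as a line of wild-type intestinal epithelial cells derived from newborn mice. Cells received either a scrambled siRNA (siR_Ctrl) or a pool of 3 siRNA duplexes against Nostrill (siR_Nostrill) for 24 h. Part of each was given IFN-γ, which the methods put at 1 ng/ml for 4 h. The labels give a time of 24 h for every library, with or without IFN-γ, and do not say what it counts. The 4 groups, which are the 2 siRNAs alone and each with IFN-γ (siR_Ctrl + IFN-γ and siR_Nostrill + IFN-γ), held 3 libraries each, described as biological triplicates of 1 cell line. The level of Nostrill was not analysed here, and the knockdown was therefore not checked. Between 17824306 and 19093204 reads were assigned to genes per library. Irf1, a transcription factor gene that IFN-γ induces directly, rose from 50.9 ± 4.05 to 578 ± 15.6 FPKM in siR_Ctrl cells and from 57.3 ± 3.21 to 543 ± 6.96 FPKM in siR_Nostrill cells (SD, n = 3). FPKM is the fragment number scaled to transcript length and to the mapped reads of the library.

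The labelled cell type was compared with its markers, and the values differed from the label. Of 11 markers of intestinal epithelium, 5 (Epcam, Cdh1, Cldn3, Cldn4 and Cldn7) were not among the genes listed. Krt19 alone had a median of at least 1 FPKM, and Krt8, Krt18, Vil1, Cdx2 and Lgals4 stayed between 0 and 0.46 FPKM in the 12 libraries. Of 7 fibroblast markers, 6 had a median of at least 1 FPKM, with Col1a1 between 175.72 and 315.14 FPKM. The summed fibroblast markers ranged from 453.67 to 673.76 FPKM in siR_Ctrl, from 380.05 to 596.84 in siR_Ctrl + IFN-γ, from 421.48 to 604.89 in siR_Nostrill and from 437.94 to 507.34 in siR_Nostrill + IFN-γ, so the groups overlapped. The summed epithelial markers ranged from 1.67 to 3.17 FPKM in siR_Ctrl, 1.9 to 2.71 in siR_Ctrl + IFN-γ, 1.94 to 2.94 in siR_Nostrill and 1.32 to 1.86 in siR_Nostrill + IFN-γ, the last overlapping siR_Ctrl alone. Of 7 immune markers 4 were listed, and Cd68 alone had a median of at least 1 FPKM (0.91 to 2.07), while the defining marker Ptprc reached at most 0.01. The summed immune markers ranged from 1.16 to 1.45 FPKM in siR_Ctrl, 1.36 to 2.15 in siR_Ctrl + IFN-γ, 1.0 to 2.18 in siR_Nostrill and 1.9 to 2.17 in siR_Nostrill + IFN-γ, so that the first and last of these groups did not overlap. Of 4 endothelial markers 2 were listed, Pecam1 at most at 0.11 FPKM and Cdh5 at most at 0.07. The part of these markers in the results was not tested.

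MAPK cascades carry signals from receptors through kinases to ERK, JNK and p38, and the signal is shut down again by phosphatases that remove phosphate from both the threonine and the tyrosine of the activated kinase. Many of these phosphatase genes are themselves transcribed in response to the kinases, so they form negative feedback loops. Sprouty proteins act further upstream, between receptor tyrosine kinases and RAS, and their genes are also switched on by ERK signalling. IFN-γ signals mainly through JAK kinases, and MAPK activity is known to modify that response.

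Promoter sequences of 8 of the 10 genes were matched in RefSeq (GRCm38.p6, 300 bases, most of them upstream of the annotated start of a transcript). For Dusp14 (chr11:84068308-84068607) and Dusp16 (chr6:134792579-134792878) the region lies wholly within the gene span given below, not at its outer end. Dusp4 and Spry4 had no entry. Those of Dusp1, which fell, and of Dusp5 and Dusp6, which rose, are shown because these genes moved in opposite directions with IFN-γ. Capitals mark letters of the motifs searched, on either strand. The regions are chr17:26508423-26508722 on the minus strand, chr19:53528895-53529194 on the plus strand and chr10:99262981-99263280 on the plus strand, each written 5′ to 3′.
Dusp1: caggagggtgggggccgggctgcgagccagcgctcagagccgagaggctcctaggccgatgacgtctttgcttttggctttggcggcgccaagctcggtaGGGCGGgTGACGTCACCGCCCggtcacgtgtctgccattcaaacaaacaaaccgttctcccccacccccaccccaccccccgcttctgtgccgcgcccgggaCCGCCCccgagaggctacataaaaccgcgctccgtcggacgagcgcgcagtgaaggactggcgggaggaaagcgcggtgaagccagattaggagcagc
Dusp5: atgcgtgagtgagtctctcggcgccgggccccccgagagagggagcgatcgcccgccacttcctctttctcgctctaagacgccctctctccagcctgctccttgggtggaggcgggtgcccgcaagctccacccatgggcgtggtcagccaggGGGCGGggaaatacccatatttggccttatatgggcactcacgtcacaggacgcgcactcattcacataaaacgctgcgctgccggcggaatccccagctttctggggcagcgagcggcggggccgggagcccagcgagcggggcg
Dusp6: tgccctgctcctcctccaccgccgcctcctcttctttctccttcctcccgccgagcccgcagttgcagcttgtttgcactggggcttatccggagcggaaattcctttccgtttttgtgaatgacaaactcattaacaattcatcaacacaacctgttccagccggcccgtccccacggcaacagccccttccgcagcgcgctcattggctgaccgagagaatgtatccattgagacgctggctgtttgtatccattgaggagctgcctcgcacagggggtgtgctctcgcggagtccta

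A set of 6 motifs was searched on both strands as fixed letters, in these 8 promoters and in all 32851 RefSeq promoters of the same length. The cAMP response element TGACGTCA was present in 1 of the 8, that of Dusp1, beginning at position -143 from the start, against 1.79% of all promoters. The SP1 site GGGCGG was present in 6 of the 8, against 35.7%, with 3 copies in the Dusp1 promoter and 1 in that of Dusp5. In the Dusp1 promoter 1 of those copies directly follows the cAMP response element, with no letter in common. The gamma-activated site TTCNNNGAA, an element known from promoters that respond to IFN-γ, was present in 1 of the 8, that of Dusp14, against 8.3% of all promoters. The ETS core CCGGAA was present in 2 of the 8 (Dusp14 and Spry2), against 14.9%. The AP-1 site TGANTCA and the TATA box TATAAA were present in 0 of the 8, against 7.81% and 13.6%. The Dusp6 promoter held none of the 6 within these 300 bases. A match is a description of the letters only.

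In siR_Ctrl cells the 10 genes differed widely in level per transcript length. Dusp14 stood highest at 21.3 ± 1.68 FPKM, followed by Dusp1 at 15.8 ± 1.06 and Dusp6 at 15.6 ± 2.24, which did not differ beyond their spread. Dusp4 (13.5 ± 2.45) and Dusp7 (13.5 ± 1.4) followed, then Dusp5 (10.6 ± 0.156) and Dusp10 (10.1 ± 0.996), and each of these pairs overlapped. Spry2 was at 7.06 ± 0.212 and Dusp16 at 5.19 ± 1.16 FPKM. Spry4 was by far the lowest at 0.89 ± 0.106 FPKM, which corresponds to 38 to 78 reads per library over all groups, so it carries the most counting error of the set.

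**Figure D1:**
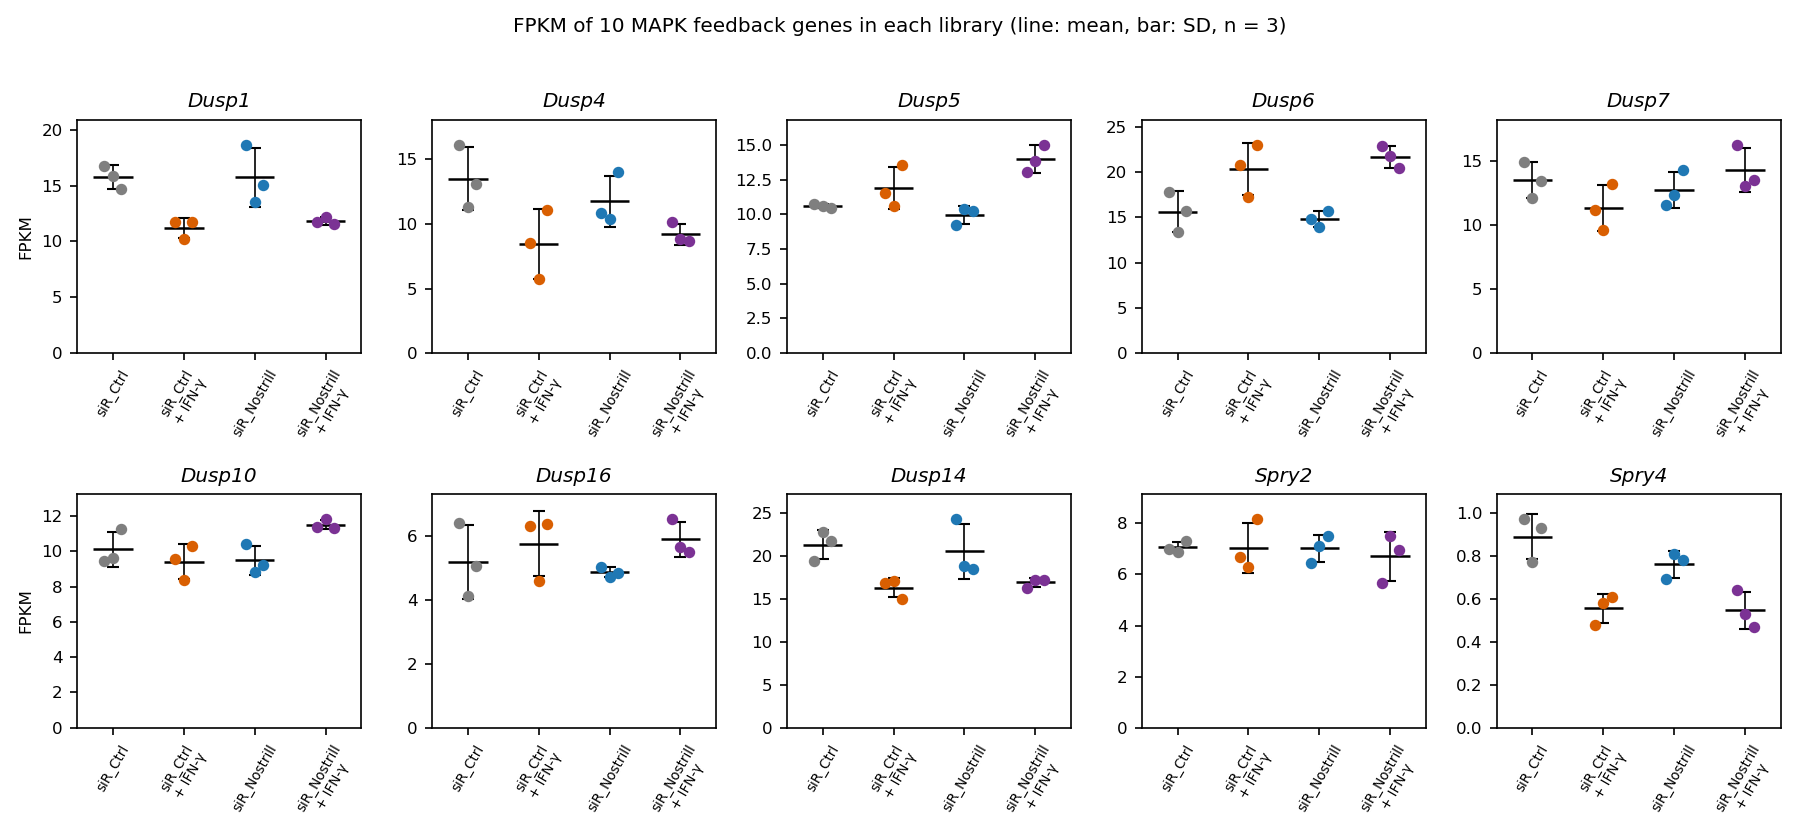
FPKM of each gene in every library, by group, with the group mean (line) and SD (bar) of 3 libraries on axes that start at 0. On this FPKM scale the 6 libraries with IFN-γ all lie below the 6 without in Dusp1, Dusp14 and Spry4, and Dusp6 and Dusp5 are highest with IFN-γ.

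The first question was how IFN-γ changes these genes within each siRNA. In siR_Ctrl cells 2 of the 10 genes passed the test (adjusted p below 0.05 over all 11900 genes): Dusp6 rose and Spry4 fell. Over all tested genes 4.71% rose and 0.748% fell. In siR_Nostrill cells 2 of the 10 passed, Dusp5 and Dusp6, both higher, and over all genes 5.24% rose and 1.55% fell. None of the 10 passed as lower there in the edgeR fit of all 12 libraries with TMM, although Dusp1 and Spry4 were lower at an unadjusted p below 0.05. Dusp1 passed there with DESeq2 and in edgeR with DESeq2 size factors, Dusp1 and Dusp4 in an edgeR fit of the compared groups alone, Spry4 with the length trend removed, and Dusp1 and Spry4 with the replicate block and the length trend removed. Without siR_Ctrl replicate 1 or siR_Nostrill replicate 2, Dusp1 passed as well. In siR_Ctrl DESeq2 called Dusp6, Dusp1 and Dusp4 and not Spry4. With the effect averaged over both siRNAs, which uses all 12 libraries, 5 of the 10 passed, 2 higher (Dusp5, Dusp6) and 3 lower (Dusp1, Dusp4, Spry4). The share over all genes was 6.81% higher and 2.4% lower. In bulk RNA, fewer cells of a type and less RNA per cell cannot be told apart. With limma on log2(TPM + 1), an alternative added after seeing the data, none of the 5 passed (adjusted p from 0.104 to 0.292). Their log2 fold changes kept their signs, from -0.47 (Dusp4) to 0.47 (Dusp6), and that of Spry4 went from -0.55 to -0.28. The median log2 fold change of the 10 genes was -0.01, beside -0.02 for all genes tested. In the FPKM values the 6 libraries with IFN-γ lay wholly below the other 6 in 3 of the 10 genes (Dusp1, Dusp14 and Spry4), against 1.77% of all tested genes. They lay wholly above in none of the 10, against 4.26%. The sum of FPKM differed between libraries (570935 to 794809). Divided by the sum of each library, as in TPM, libraries with and without IFN-γ overlapped in all 3 genes. In counts scaled by TMM, Dusp14 alone of the 3 overlapped.

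**Figure D2:**
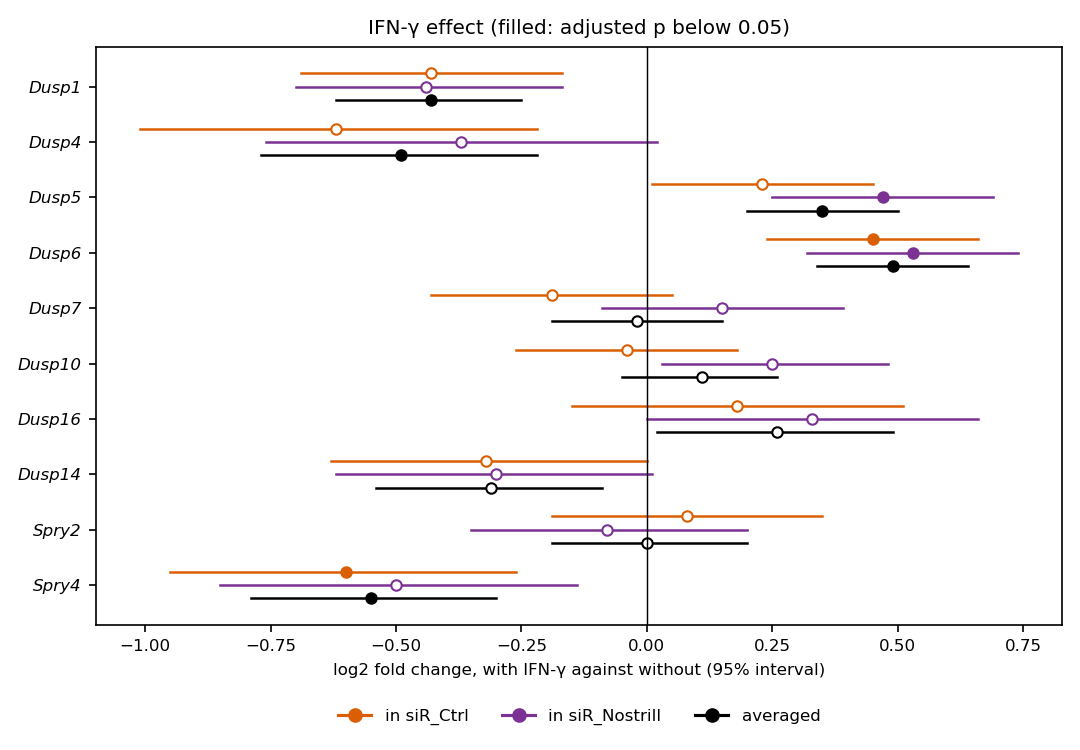
Log2 fold change with IFN-γ against without, with its 95% interval, in siR_Ctrl, in siR_Nostrill and averaged over both; filled points passed the test. The averaged interval lies above 0 for Dusp5, Dusp6 and Dusp16 and below 0 for Dusp1, Dusp4, Dusp14 and Spry4, and 5 of these 7 passed after adjustment.

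Among the inducible nuclear phosphatases, Dusp1, an immediate-early gene whose product acts on p38, JNK and ERK, was lower with IFN-γ. Its level was 16.8, 15.9 and 14.7 FPKM in siR_Ctrl and 11.7, 10.2 and 11.7 in siR_Ctrl + IFN-γ. It was 18.7, 13.5 and 15.1 FPKM in siR_Nostrill and 11.8, 12.2 and 11.5 in siR_Nostrill + IFN-γ. In FPKM all 6 libraries with IFN-γ lay below the lowest of the 6 without. The averaged log2 fold change was -0.43 (SE 0.08, 95% interval -0.62 to -0.25, adjusted p = 0.00573). Within siR_Ctrl it was -0.43 and within siR_Nostrill -0.44, neither of which passed alone (adjusted p = 0.0678 and 0.0521), although of 12 other fits of all libraries or of the compared groups, 6 called it in siR_Ctrl and 4 in siR_Nostrill, DESeq2 in both. With 1 library left out the value ranged from -0.48 to -0.38 in siR_Ctrl and from -0.53 to -0.27 in siR_Nostrill, where -0.27 was that without siR_Nostrill replicate 1, the highest library at 18.7 FPKM.

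Dusp4, another nuclear phosphatase induced by ERK signalling, was lower with IFN-γ with the largest SE of the 10. Its level was 16.15, 11.3 and 13.1 FPKM in siR_Ctrl and 8.56, 5.72 and 11.1 in siR_Ctrl + IFN-γ. It was 10.9, 10.4 and 14.0 FPKM in siR_Nostrill and 10.1, 8.82 and 8.66 in siR_Nostrill + IFN-γ. Replicate 3 of siR_Ctrl + IFN-γ overlapped the libraries without IFN-γ, and the other 5 libraries with IFN-γ did not. The averaged log2 fold change was -0.49 (SE 0.13, interval -0.77 to -0.22, adjusted p = 0.0295). The call was lost in all 3 limma fits on FPKM (adjusted p = 0.0521, 0.0534 and 0.0752). It was also lost without siR_Ctrl replicate 3 (adjusted p = 0.0572), siR_Ctrl + IFN-γ replicate 1 (0.0714), siR_Nostrill replicate 1 (0.0561) or 3 (0.0816), or siR_Nostrill + IFN-γ replicate 2 (0.0811) or 3 (0.0794), with the fold change between -0.51 and -0.44 in these fits.

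Dusp5, a nuclear phosphatase specific to ERK, went the other way. Its level was 10.75, 10.6 and 10.4 FPKM in siR_Ctrl and 11.5, 10.6 and 13.6 in siR_Ctrl + IFN-γ. It was 9.24, 10.4 and 10.2 FPKM in siR_Nostrill and 13.1, 13.8 and 15.0 in siR_Nostrill + IFN-γ. The groups did not overlap in siR_Nostrill, and in siR_Ctrl replicate 2 with IFN-γ lay within the range without. The log2 fold change was 0.47 in siR_Nostrill (SE 0.1, interval 0.25 to 0.69, adjusted p = 0.0132), 0.23 in siR_Ctrl (interval 0.01 to 0.45, adjusted p = 0.298) and 0.35 averaged (interval 0.2 to 0.5, adjusted p = 0.00661). The difference between the 2 effects was 0.24 (interval -0.07 to 0.55) and did not pass (adjusted p = 0.431). The call in siR_Nostrill was lost without siR_Nostrill replicate 1 (adjusted p = 0.0618) or 3 (0.0615) or without siR_Nostrill + IFN-γ replicate 3 (0.0722).

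Of the cytoplasmic ERK phosphatases, Dusp6 rose with the smallest adjusted p of the 10 genes. Its level was 17.8, 13.35 and 15.7 FPKM in siR_Ctrl and 20.8, 17.2 and 23.0 in siR_Ctrl + IFN-γ. It was 14.8, 13.9 and 15.7 FPKM in siR_Nostrill and 22.9, 21.75 and 20.4 in siR_Nostrill + IFN-γ. Only siR_Ctrl + IFN-γ replicate 2 fell within the range of the libraries without IFN-γ, below siR_Ctrl replicate 1. The fitted rise was 1.36-fold in siR_Ctrl (log2 0.45, SE 0.1, adjusted p = 0.0155), 1.44-fold in siR_Nostrill (log2 0.53, SE 0.1, adjusted p = 0.00475) and 1.4-fold averaged (log2 0.49, SE 0.07, adjusted p = 0.000435). The averaged call and that in siR_Nostrill held when any 1 of the 12 libraries was left out. The call in siR_Ctrl was lost without siR_Ctrl replicate 2 (adjusted p = 0.0695) or 3 (0.0622) or without siR_Ctrl + IFN-γ replicate 1 (0.0595) or 3 (0.0656), in a fit of the compared groups alone (0.177) and in the 3 limma fits on FPKM (0.144 to 0.171).

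Dusp7, the close relative of Dusp6 in the cytoplasm, had no common direction. Its level was 14.9, 12.1 and 13.4 FPKM in siR_Ctrl, 11.1, 9.60 and 13.2 in siR_Ctrl + IFN-γ, 11.5, 12.3 and 14.3 in siR_Nostrill and 16.2, 13.05 and 13.5 in siR_Nostrill + IFN-γ. All 4 groups overlapped with at least 1 other. The log2 fold change with IFN-γ was -0.19 in siR_Ctrl (interval -0.43 to 0.05) and 0.15 in siR_Nostrill (interval -0.09 to 0.39), and neither passed. With 1 library left out these ranged from -0.28 to -0.12, the latter without siR_Ctrl + IFN-γ replicate 2, and from 0.06 (without siR_Nostrill + IFN-γ replicate 1; 0.09 without siR_Nostrill replicate 1) to 0.21.

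The phosphatases that prefer JNK and p38 did not pass in any IFN-γ comparison in the edgeR fit of all 12 libraries with TMM. Dusp10 was at 9.46, 9.62 and 11.3 FPKM in siR_Ctrl, 9.58, 8.37 and 10.3 in siR_Ctrl + IFN-γ, 10.4, 8.82 and 9.24 in siR_Nostrill and 11.4, 11.8 and 11.3 in siR_Nostrill + IFN-γ. The 3 libraries of siR_Nostrill + IFN-γ were the highest group. With IFN-γ the log2 fold change of Dusp10 was 0.25 in siR_Nostrill (interval 0.03 to 0.48, adjusted p = 0.173). It was -0.04 in siR_Ctrl (interval -0.26 to 0.18, adjusted p = 0.876) and 0.11 averaged (interval -0.05 to 0.26, adjusted p = 0.483). Dusp16 was at 6.41, 4.11 and 5.05 FPKM in siR_Ctrl, 6.31, 4.59 and 6.37 in siR_Ctrl + IFN-γ, 5.02, 4.72 and 4.85 in siR_Nostrill and 6.52, 5.66 and 5.50 in siR_Nostrill + IFN-γ. The siR_Nostrill groups did not overlap with each other, whereas the siR_Ctrl groups did. The log2 fold change of Dusp16 was 0.33 in siR_Nostrill and 0.18 in siR_Ctrl, and neither passed in this fit. The difference between these effects was 0.15 (interval -0.31 to 0.62) and did not pass (adjusted p = 0.672). The averaged log2 fold change of Dusp16 was 0.26 (interval 0.02 to 0.49, adjusted p = 0.195). Other edgeR fits called Dusp16 higher: in siR_Nostrill that of the compared groups alone (adjusted p = 0.0389), in siR_Ctrl and in the average those with the length trend removed, and in the average also that without siR_Ctrl replicate 1 (adjusted p = 0.0417).

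Dusp14, a small atypical phosphatase without the kinase-docking domain of the others, separated by IFN-γ in its FPKM values without passing the test on counts. Its level was 19.5, 22.8 and 21.7 FPKM in siR_Ctrl, 16.9, 17.1 and 15.0 in siR_Ctrl + IFN-γ, 24.3, 18.9 and 18.5 in siR_Nostrill and 16.3, 17.3 and 17.2 in siR_Nostrill + IFN-γ. In FPKM all 6 libraries with IFN-γ lay below the other 6. That order did not hold in counts scaled by TMM. There siR_Ctrl + IFN-γ replicate 2 (403 reads, TMM factor 0.9039) lay above siR_Nostrill replicate 3 (422 reads, TMM factor 1.043). The averaged log2 fold change was -0.31 (SE 0.1, interval -0.54 to -0.09, adjusted p = 0.0941). In that comparison Dusp14 passed with DESeq2 on the same counts and with limma on log2(FPKM + 1).

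The calls of Dusp14 and Dusp16 changed when a trend with transcript length was removed. Over the other fits their averaged log2 fold changes ranged from -0.33 to -0.27 for Dusp14 and from 0.18 to 0.26 for Dusp16. Any part of length in these values was not tested. Dusp14 has the shortest effective length of the 10 genes (1244 nt) and Dusp16 the longest (4756 nt), and within groups the libraries differed from each other by a trend with length (absolute Spearman correlation across genes between 0.193 and 0.782 per library). When that trend was removed, Dusp14 and Dusp16 both passed in the averaged comparison, and 7 of the 10 genes did in all, beside 2375 of all 11900 genes (1096 with the trend). In siR_Ctrl, 5 then passed in place of 2, namely Dusp1, Dusp4, Dusp6, Dusp14 and Dusp16, beside 1322 of all genes (649 with the trend). Dusp6 (2563 nt) passed in each IFN-γ comparison with and without the trend.

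Of the Sprouty genes, Spry4 was lower with IFN-γ and no difference was detected in Spry2. Spry4 was at 0.97, 0.77 and 0.93 FPKM in siR_Ctrl and 0.48, 0.58 and 0.61 in siR_Ctrl + IFN-γ. It was at 0.69, 0.81 and 0.78 FPKM in siR_Nostrill and 0.64, 0.53 and 0.47 in siR_Nostrill + IFN-γ. In FPKM all 6 libraries with IFN-γ lay below the other 6, the nearest being 0.64 against 0.69. The averaged log2 fold change was -0.55 (SE 0.11, interval -0.79 to -0.3, adjusted p = 0.00785), the lowest of the 10. In siR_Ctrl it was -0.6 (adjusted p = 0.0491) and in siR_Nostrill -0.5 (adjusted p = 0.0963), where it passed in both edgeR fits with the length trend removed and in no other fit. The call in siR_Ctrl sat at the threshold and held in 1 of the 12 fits that leave out a library, with adjusted p between 0.0485 and 0.174, and in 2 of 11 other fits, DESeq2 not among them. The averaged call held in all 12 fits that leave out a library. Over the other fits the averaged value of Spry4 ranged from -0.57 to -0.23. With limma on log2(TPM + 1) it was -0.28 and the call was lost (adjusted p = 0.124). In siR_Ctrl the value was -0.28 with limma on log2(FPKM + 1).

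Spry2 was at 7.0, 6.89 and 7.30 FPKM in siR_Ctrl, 6.70, 6.30 and 8.16 in siR_Ctrl + IFN-γ, 6.44, 7.12 and 7.51 in siR_Nostrill and 5.65, 7.51 and 6.96 in siR_Nostrill + IFN-γ. The groups overlapped throughout. The averaged log2 fold change was 0.00 (interval -0.19 to 0.2).

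The second question was whether Nostrill knockdown shifts these genes, with and without IFN-γ. No gene of the 10 passed in either state, in the average of both states or in the interaction, in the edgeR fit of all 12 libraries with TMM or by DESeq2. The exception among the other fits was Dusp7 with IFN-γ, called in edgeR with the replicate block and the length trend removed (adjusted p = 0.0442). Over all tested genes 0.218% passed without IFN-γ, 0.429% with IFN-γ, 2.16% in the average and 0% in the interaction, where 1277 of the 11900 genes reached an unadjusted p below 0.05 and DESeq2 called 0 as well. At an unadjusted p below 0.05, 0 of the 10 were reached without IFN-γ, 2 with IFN-γ, 0 in the average and 0 in the interaction. Over all genes that share was 13.8%, 14.5%, 16.5% and 10.7%, so the 2 of 10 with IFN-γ are read as values and not as changes. Without IFN-γ the 10 log2 fold changes lay between -0.2 (Spry4, interval -0.53 to 0.14) and 0.03, and the widest limits of their 95% intervals were -0.56 and 0.3. Averaged over both states they lay between -0.14 and 0.11, with limits of -0.39 and 0.28. Missing the threshold does not show that the levels were equal.

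**Figure D3:**
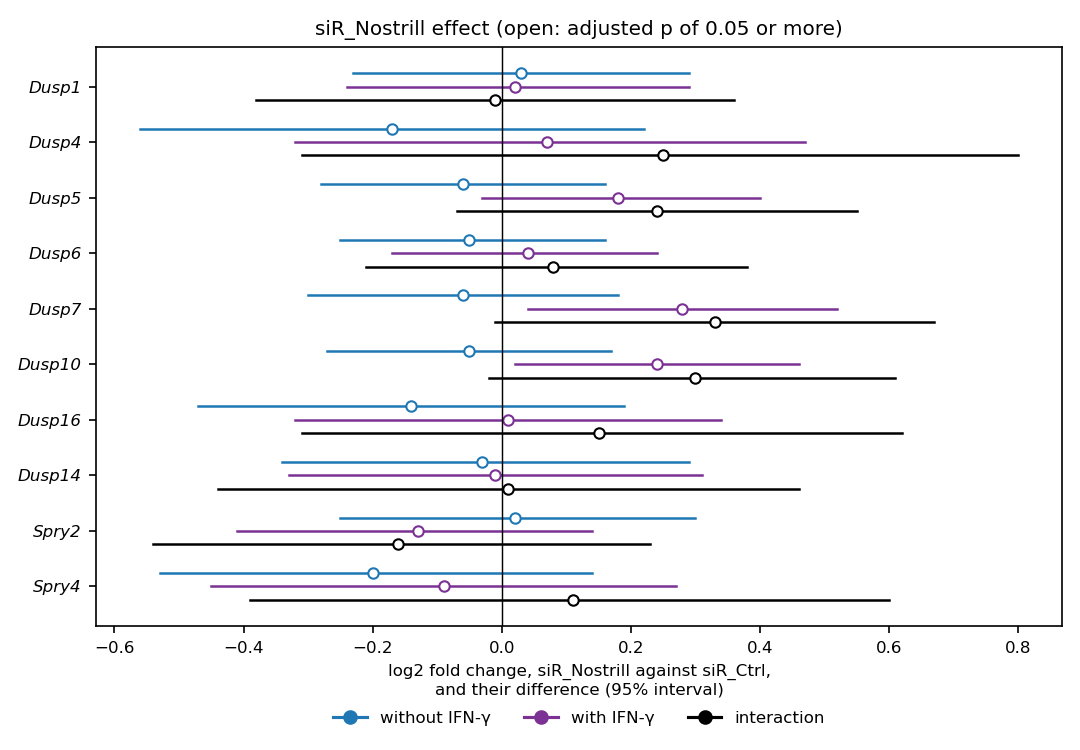
Log2 fold change of siR_Nostrill against siR_Ctrl without and with IFN-γ and their difference (interaction), with 95% intervals; every point is open since none passed in this fit. The intervals of Dusp7 and Dusp10 with IFN-γ lie above 0 before adjustment.

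With IFN-γ the genes at an unadjusted p below 0.05 were Dusp7 and Dusp10. Dusp7 was higher in siR_Nostrill + IFN-γ than in siR_Ctrl + IFN-γ by a log2 fold change of 0.28 (interval 0.04 to 0.52, adjusted p = 0.268; 0.0442 with the replicate block and the length trend removed). Its FPKM values overlapped, with siR_Ctrl + IFN-γ replicate 3 (13.2) above siR_Nostrill + IFN-γ replicate 2 (13.05). Dusp10 was higher by 0.24 (interval 0.02 to 0.46, adjusted p = 0.293), and its 3 libraries with the knockdown, from 11.3 to 11.8 FPKM, lay above the 3 control libraries, from 8.37 to 10.3. The interaction, the IFN-γ effect in siR_Nostrill minus that in siR_Ctrl, was 0.33 for Dusp7 (interval -0.01 to 0.67, adjusted p = 0.43) and 0.3 for Dusp10 (interval -0.02 to 0.61, adjusted p = 0.43).

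Across the 12 libraries, some pairs of the 10 genes varied together and others in opposition. These correlations of log2 CPM (reads scaled to equal library size) are descriptions, since the pairs are read over the same 12 libraries in 4 groups, and within groups these libraries differ by a trend with gene length. The highest were Dusp1 with Dusp14 (Pearson r = 0.83), Dusp6 with Dusp16 (0.82), Dusp5 with Dusp6 (0.8) and Dusp4 with Spry4 (0.71). The lowest were Dusp1 with Dusp6 (-0.82) and Dusp6 with Dusp14 (-0.81). Spry4 had the widest range of group means of log2 CPM (0.68), and Spry2 the narrowest (0.14). Among all tested genes the pattern over the 12 libraries most like that of Spry4 belonged to the lysophosphatidic acid receptor gene Lpar1 (r = 0.942), the Integrator subunit gene Ints3 (0.931) and the cyclin D1 gene Ccnd1 (0.919).

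The rest of the pathway was read from 7 lists of genes. With IFN-γ averaged over both siRNAs, 6.81% of all tested genes rose and 2.4% fell, to be read beside the counts of each list. The other feedback inhibitors numbered 13, of which 12 were tested, and with IFN-γ averaged over both siRNAs 1 rose and 2 fell. Their median log2 fold change was 0.07, beside -0.02 for all genes. Spry1, another Sprouty gene, fell from 0.847 ± 0.189 to 0.38 ± 0.0458 FPKM in siR_Ctrl and from 0.663 ± 0.0737 to 0.193 ± 0.0814 in siR_Nostrill (SD, n = 3). Its averaged log2 fold change of -1.4 (SE 0.18, adjusted p = 0.00031) was lower than that of any of the 10 genes, and like Spry4 it stayed below 1 FPKM. Dusp9, the remaining cytoplasmic ERK phosphatase, fell by 0.38 (adjusted p = 0.00224), from 17.6 ± 0.354 to 11.7 ± 0.781 FPKM in siR_Ctrl and from 17.4 ± 1.08 to 15.0 ± 1.63 in siR_Nostrill, where it did not pass alone (adjusted p = 0.166). Errfi1, an inhibitor of the EGF receptor, rose by 0.29 (adjusted p = 0.0179), a call kept in 7 of the 12 fits that leave out a library.

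Of 11 atypical dual-specificity phosphatases 9 were tested, and 2 rose in the average: Dusp28 by 0.72 (adjusted p = 0.0123) and Dusp22 by 0.31 (adjusted p = 0.0319). The Dusp28 call held in all 12 fits that leave out a library and that of Dusp22 in 3. The median of the 9 genes was 0.00, and over all tested genes 6.81% rose in the average. Of 15 receptor and adaptor genes 14 were tested and 0 passed in any of the 7 comparisons by edgeR, with a median of 0.07 in the average. There 3 of the 14 reached an unadjusted p below 0.05, beside 19.9% of all tested genes. DESeq2 called 1 of the 14 there, the adaptor gene Grb2, named after its value was seen.

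Of the 8 ligands of the EGF, FGF and HGF receptors, 1 rose and 2 fell in the average, and their median was -0.23. Over all tested genes 6.81% rose and 2.4% fell. The amphiregulin gene Areg had an averaged log2 fold change of -0.46 (adjusted p = 0.0149). In siR_Nostrill it fell from 27.2 ± 2.98 to 15.9 ± 1.53 FPKM (log2 -0.8, adjusted p = 0.00624), beside 20.2 ± 1.81 and 17.6 ± 1.48 FPKM in siR_Ctrl (log2 -0.13, adjusted p = 0.756). The difference between these effects, -0.67 (SE 0.21), did not pass (adjusted p = 0.43). Hbegf fell by 0.29 (adjusted p = 0.0211) and Tgfa rose by 0.59 (adjusted p = 0.0415), calls that held in 6 and 2 of the 12 fits that leave out a library.

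All 13 kinase, scaffold and RAS genes of the ERK cascade were tested, and 3 rose in the average: Map2k1, which encodes the MEK kinase that activates ERK, by 0.27 (adjusted p = 0.0119), Nras by 0.21 (adjusted p = 0.0261) and the scaffold gene Ksr1 by 0.42 (adjusted p = 0.0468). Map2k1 kept its call in all 12 fits that leave out a library, and Nras and Ksr1 in 3 each. None of the 13 fell, and their median was 0.04, while over all tested genes 6.81% rose and 2.4% fell in the average. Of 16 genes listed for the JNK and p38 cascades 15 were tested. In the average 1 rose and 1 fell, with a median of -0.01. The gene that rose, Map3k8, is counted in this list and not in that of the ERK cascade. Map3k8, a kinase that links inflammatory receptors to ERK, rose from 1.01 ± 0.0757 to 2.32 ± 0.21 FPKM in siR_Ctrl and from 1.2 ± 0.102 to 2.3 ± 0.221 in siR_Nostrill (averaged log2 1.09, SE 0.09, adjusted p = 7.96e-06). Map2k6, an activator of p38, fell by 0.38 (adjusted p = 0.00983). Mapk9, which encodes a JNK kinase, was the only gene of the 7 lists to pass in a comparison of siRNAs in the edgeR fit of all 12 libraries, being lower with siR_Nostrill averaged over both states (log2 -0.24, adjusted p = 0.0449), a call that held in 1 of the 12 fits that leave out a library and in 4 of the 11 others. DESeq2 called Mapk9 with IFN-γ and in the average, Jun in the same comparisons, Ereg without IFN-γ and in the average, Fgf2 with IFN-γ and in the average, and Dusp9 with IFN-γ, the 4 beside Mapk9 named after their values were seen.

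Genes listed as outputs of ERK signalling, Elk1 among them, gave both directions. Of 16, 15 were tested, 3 rose and 2 fell in the average, and the median was 0.15. Over all tested genes 6.81% rose and 2.4% fell, with a median of -0.02. Jun rose by 0.42 (adjusted p = 0.000255), Junb by 0.45 (adjusted p = 0.00103) and Phlda1 by 0.46 (adjusted p = 0.000174), with Junb going from 98.8 ± 11 to 144 ± 2.15 FPKM in siR_Ctrl and from 117 ± 6.75 to 145 ± 4.85 in siR_Nostrill. The receptor gene Epha2 fell by 0.48 (adjusted p = 0.00121) and Ccnd1 by 0.19 (adjusted p = 0.0372). The call of Ccnd1 held in 3 of the 12 fits that leave out a library and those of the other 4 in all 12. In a separate check of the IFN-γ response, Irf1 rose by a log2 fold change of 3.4, Socs1 by 2.95 and Gbp2 by 6.52 in the average (adjusted p = 2.82e-11, 3.1e-09 and 1.28e-10).

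**Figure D4:**
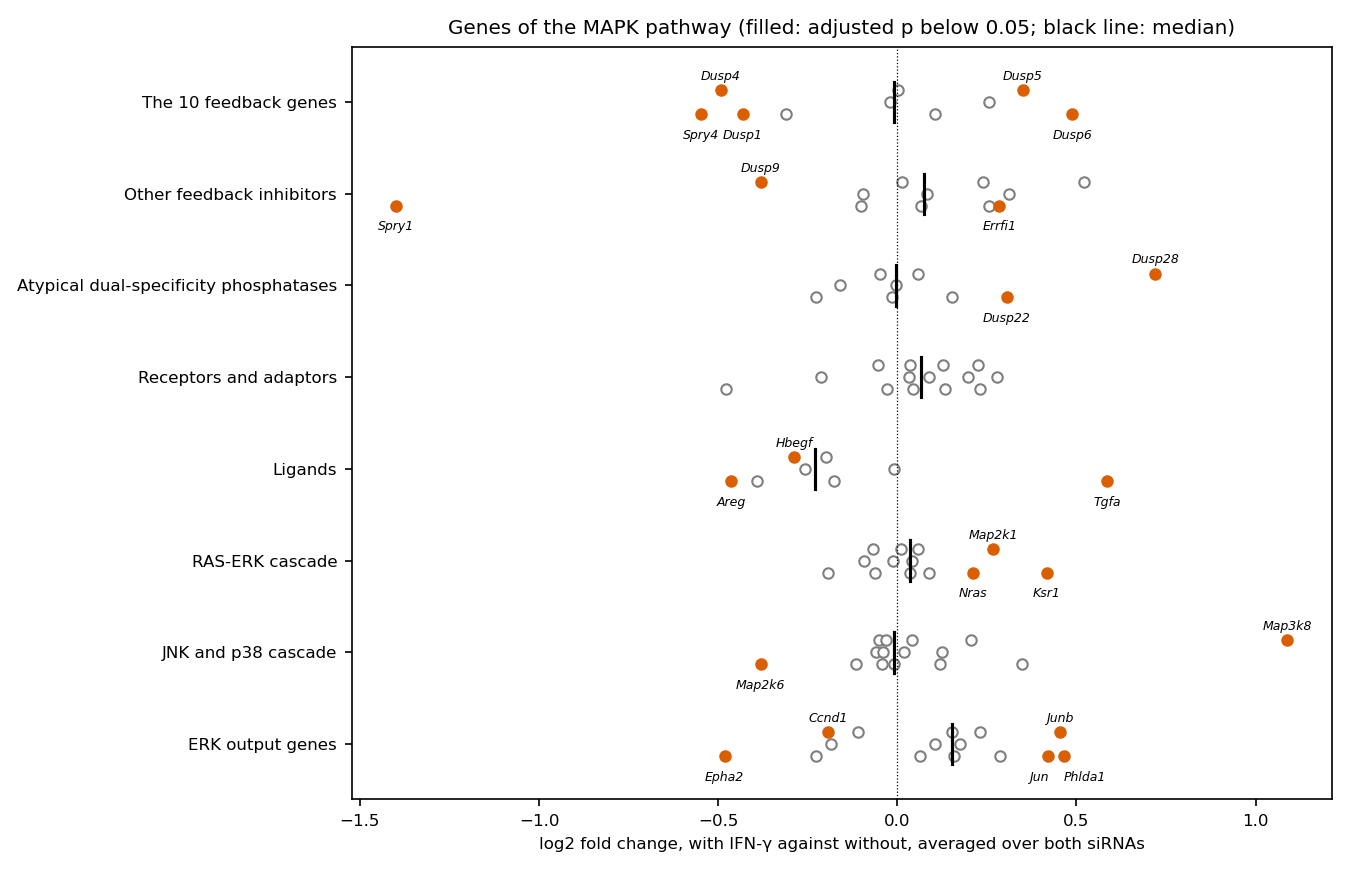
Averaged IFN-γ log2 fold change of each tested gene of the MAPK lists, with called genes filled and named and the list median as a black line. The 10 feedback genes spread from -0.55 (Spry4) to 0.49 (Dusp6) around a median of -0.01, and Spry1 (-1.4) and Map3k8 (1.09) lie farthest out.

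By position, the 10 genes lie on 10 chromosomes in the RefSeq annotation of GRCm38.p6, so none neighbours another. Dusp1 is at chr17:26505591-26508472, Dusp4 at chr8:34807610-34819894, Dusp5 at chr19:53529145-53541809, Dusp6 at chr10:99263231-99267489 and Dusp7 at chr9:106368560-106375724. Dusp10 is at chr1:184034381-184075636, Dusp14 at chr11:84048033-84069256, Dusp16 at chr6:134715468-134807063, Spry2 at chr14:105891947-105896819 and Spry4 at chr18:38586247-38601347.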

How the data were processed

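RNA was sequenced from 12 libraries of IEC4.1 cells, 4 groups of 3. Reads were filtered with SOAPnuke and aligned with HISAT2 and Bowtie2 to GRCm38.p6, per the study's methods. The counting tool was not given in the sources used here, and strand use is unknown. The authors deposited an estimated count per gene and library, not normalized, of which between 90.6% and 91.6% were whole. The authors also deposited FPKM, scaled for length and mapped reads, whose sums ranged from 570935 to 794809 between libraries, and TPM, whose sums are nearly equal.

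Counts were rounded and tested with edgeR 4.0.16 in R 4.3.3: TMM scaling, filterByExpr at its defaults, a quasi-likelihood test in 1 fit of the 12 libraries, Benjamini-Hochberg adjustment over 11900 genes and threshold 0.05. Intervals are 95% intervals from the fitted SE. The script was tested on simulated data. In 7 comparisons, IFN-γ was contrasted within each siRNA and averaged, siR_Nostrill with siR_Ctrl within each IFN-γ state and averaged, and the interaction was tested. Alternatives were DESeq2 1.42.0, DESeq2 size factors, a stricter filter (mean CPM of 5 or more) or none, a fit of the compared groups alone, a block for the replicate number, removal of the length trend by a lowess offset (span 0.3), limma 3.58.1 on log2(FPKM + 1) and log2(FPKM + 0.1), and each library left out in turn. A fold change from limma is on the log2(value + pseudocount) scale. The limma fits had a filter at a mean FPKM of 0.5, except for a further fit on log2(FPKM + 1) with no filter. limma on log2(TPM + 1) was added after seeing that FPKM sums differed.

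Every member was named, and from the pathway lists each gene past the threshold in any comparison, up to 4 per list by smallest adjusted p. Ccnd1 exceeded that limit and is named as a likeness gene. Of the IFN-γ check list, 1 gene is not reported here. Members and lists were chosen with earlier results of these data known. P-values measure the spread between these libraries of 1 cell line. Promoter sequences are from RefSeq (GRCm38.p6).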

Additional observations from a re-analysis of the deposited data

How the results depend on the processing

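The number of the 10 genes called with IFN-γ in siR_Ctrl, 2 as reported, was 1 with no filter on low counts, 1 with a mean of at least 5 CPM, 0 with only the groups compared, 5 with the length trend removed, 5 with the replicate block and the length trend removed, 1 (Dusp1 in place of Dusp6 and Spry4) with limma on log2(FPKM + 1) or log2(FPKM + 0.1) and 0 with limma on log2(TPM + 1), and 0 to 2 when 1 library was left out. In siR_Ctrl the 2 fits that called 5 members called 1322 and 1442 of all 11900 genes. In siR_Nostrill, 2 as reported, it was 5 with only the groups compared, beside 1997 of all 11714 genes (807 of 11900 as reported). It was 4 with the replicate block and the length trend removed, beside 2659 of all 11900 genes. It was 0 with TPM and 1 to 3 with 1 library left out. In the average, 5 as reported, it was 0 with TPM and 4 to 7 with 1 library left out. With siR_Nostrill in the presence of IFN-γ, 0 as reported, it was 1 (Dusp7) with the replicate block and the length trend removed. That fit called 1892 of all 11900 genes. The other counts of called members stayed within 1.5 times. TPM shifted the median of all genes to -0.15 with IFN-γ in siR_Ctrl, 0.14 in siR_Nostrill and 0.29 in the interaction. Of the member values with IFN-γ, these reversed. Spry2 with IFN-γ in siR_Ctrl, 0.08, became -0.01 with each limma fit on FPKM, -0.09 with TPM and -0.01 without siR_Ctrl + IFN-γ replicate 3 (range -0.01 to 0.13). Spry2 in siR_Nostrill, -0.08, became 0.06 with TPM and 0.05 without siR_Nostrill + IFN-γ replicate 1 (range -0.16 to 0.05). Dusp10 in siR_Ctrl, -0.04, became 0.03 without siR_Ctrl replicate 3 (range with 1 library left out -0.11 to 0.03). Dusp7 in the average, -0.02, became 0.01 without siR_Ctrl replicate 1, siR_Ctrl + IFN-γ replicate 2, siR_Nostrill replicate 3 or siR_Nostrill + IFN-γ replicate 2 (range -0.07 to 0.01). Of the 40 member values in the siRNA comparisons and the interaction, 21 changed sign under at least 1 alternative, the largest being that of Spry2 in the interaction (-0.16). The cause was not tested. Among the named values of members and list genes with IFN-γ, and of Spry4, Dusp5, Dusp7 and Dusp10 where given for siRNAs or the interaction, 1651 re-computed values kept direction and side of the threshold, 172 fell below it, 37 passed it and 12 reversed.

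Correlations of deviations in 18 same-numbered pairs ranged from -0.495 to 0.725, and 8 were over 0.1. These deviations carry the trend with length, so they cannot decide whether replicate numbers pair the libraries. With that trend removed, adding the replicate block raised the calls over all genes from 2257 to 2659 with IFN-γ in siR_Nostrill. For siR_Nostrill with IFN-γ they went from 1540 to 1892, and in the interaction from 0 to 248. With the replicate block alone the members called were 2 in siR_Ctrl (Dusp4 and Dusp6), 2 in siR_Nostrill and 5 in the average. Over all genes the calls were 649 in siR_Ctrl (318 with TPM to 1442 with block and length trend removed), 807 in siR_Nostrill (595 to 2659, 491 to 1138 with 1 library left out), 1096 in the average (671 to 2604), 26 for siR_Nostrill without IFN-γ (0 to 557), 51 with IFN-γ (0 to 1892), 257 in their average (113 to 1877; 83 with 1 library left out) and 0 in the interaction (up to 248). The depth of 38 to 78 reads per library limits Spry4 most.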
